A study of Mus musculus with 17 samples.

Results

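Hmgcs1, Idi1, Fdps, Sqle, Lss, Cyp51 and Insig1 were followed in the liver of mice that received a high-fat diet, an ethanol binge, or both. They were chosen as a set by gene symbol, and all probes with 1 of these 7 symbols in the table of log2 ratios were taken. This gave 16 of the 41174 probes of the array, and all 16 were among the 34649 probes tested. All but Insig1 encode enzymes that make cholesterol, here called the 6 member enzymes, and Insig1 restrains its synthesis. None of the 7 is a gene of LDL uptake, so uptake is described here only through a separate list of lipoprotein and cholesterol handling genes.

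Each array held liver RNA of 1 male mouse, and the mice formed 4 groups. The chow group (n = 4, Chow+maltose in the labels) had standard chow for 3 months and then a maltose gavage, and the 1B group (n = 4, Chow+binge) had the same diet and 1 gavage of ethanol at 5 g/kg. The HFD group (n = 4, HFD+maltose) had a high-fat diet with 60% of calories as fat for 3 months and a maltose gavage, and the HFD+1B group (n = 5, HFD+binge) had that diet and the ethanol gavage. Livers were taken 9 hours after the gavage, a single time point. The labels name the strain C57BL/6N for all 17 mice, whereas the methods name C57BL/6J, and the labels name no transgene or deletion.

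Liver cDNA was labeled with Cy5 and a common mouse reference RNA with Cy3 on every array, without a dye swap. Values are therefore log2 ratios of liver to reference for 1 probe, and they can be compared between mice but not between probes or genes. A gene was called higher or lower in limma where its p, after Benjamini-Hochberg adjustment over all probes tested, was at most 0.05. For each gene the probe with the brightest mean Cy5 signal was used, and the other probes are given separately. The labels do not say more about how the mice were housed or dissected, so the p-values measure the spread between these mice only.

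The pathway starts from acetyl-CoA. Hmgcs1 makes HMG-CoA, later enzymes turn it into mevalonate and then into isoprenoid units, Idi1 isomerizes these units, and Fdps joins them to farnesyl diphosphate, from which cholesterol and other isoprenoids are made. Farnesyl diphosphate is then condensed to squalene, which Sqle oxidizes and Lss cyclizes to lanosterol, and Cyp51 removes a methyl group from lanosterol on the way to cholesterol. In sterol-poor cells the SREBP transcription factors are processed and activate these genes. Insig1, an anchor protein of the endoplasmic reticulum and itself an SREBP target, holds the SREBP escort Scap back when sterols are plentiful. In liver, insulin and feeding also act on this system.

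The promoters of Hmgcs1 and Insig1 are shown because their transcripts differed in opposite directions between HFD and chow. Both are from RefSeq on the GRCm38.p6 build, which is newer than the one the array was annotated on, and hold the 250 bases before the annotated start, given 5′ to 3′ on the strand of the gene. Hmgcs1 lies on the plus strand at chr13:119690101-119690350, and Insig1 on the plus strand at chr5:28071162-28071411. Capitals mark matches on either strand to the sterol regulatory element core TCACNCCAC, the NF-Y box CCAAT (or ATTGG on the opposite strand), and the Sp1 box GGGCGG (or CCGCCC).
Hmgcs1: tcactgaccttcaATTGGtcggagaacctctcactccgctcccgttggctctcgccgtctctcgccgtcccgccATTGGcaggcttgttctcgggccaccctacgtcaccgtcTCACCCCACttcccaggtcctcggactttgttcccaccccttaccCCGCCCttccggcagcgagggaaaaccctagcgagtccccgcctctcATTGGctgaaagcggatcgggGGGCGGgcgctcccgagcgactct
Insig1: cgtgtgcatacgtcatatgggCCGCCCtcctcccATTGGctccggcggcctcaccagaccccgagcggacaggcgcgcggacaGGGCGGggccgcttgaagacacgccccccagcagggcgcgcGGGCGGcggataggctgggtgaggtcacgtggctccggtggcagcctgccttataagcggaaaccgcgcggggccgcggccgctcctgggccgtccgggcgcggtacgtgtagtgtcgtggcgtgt

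In the window from 250 bases before to 50 after the start, Hmgcs1 was the 1 member of the 5 with a promoter in the table (Hmgcs1, Idi1, Lss, Cyp51 and Insig1) that held the sterol element core, 137 bases before the start, and 1.24% of the 32851 promoters in the table held it. All 5 held a CCAAT box and all 5 a GGGCGG box, which stood in 37.4% and 35.7% of the promoters in the table. No marked match overlaps another, and a match describes the letters only.

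The arrays differed in brightness. Median Cy5 intensity per array ran from 63 to 158. The HFD arrays (63 to 98) were dimmer than all chow arrays (99 to 138) and most HFD+1B arrays (90 to 158). The part of brightness in the differences between HFD and chow was not tested. Between 73.8% and 85.9% of spots were well above background in Cy5, and the correlation of log2 ratios between 2 arrays was -0.07 to 0.87. Of the 16 member probes, 15 were well above background in Cy5 on all 17 arrays and the dimmest Hmgcs1 probe on 16, and 0 arrays had a saturated member spot. Probes for ribosomal RNA stood apart in HFD. The mean log2 ratio of Rn18s, Rn45s and Rn28s1 was -3.55 to -1.88 in the 4 HFD mice, below all other mice, which lay between -0.94 and 1.17. Because every HFD mouse was low, this signal and the HFD group cannot be told apart. In whole liver RNA, fewer cells of a type and less RNA per cell cannot be told apart either.

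Compared with chow, the binge alone (1B) went with less Insig1 and more Fdps, whereas the other 5 members were not called. The diet alone (HFD) went with less Insig1 and with more Hmgcs1 and Fdps. In 1B, 1 of 7 members was called higher and 1 lower, where 1.84% and 1.78% of all probes tested were. In HFD, 2 members were called higher and 1 lower, where 3.88% and 6.1% of all probes were. In HFD+1B against chow, Insig1 alone was called, lower, where 7.8% of all probes were higher and 6.98% lower. No member was called higher there in limma, nor at an unadjusted p of 0.05 or less (0 of 7), nor with the Tukey test named in the methods. The Tukey p-values were here also adjusted over all probes tested, a stricter rule that the methods do not name.

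The binge on the high-fat diet gave the most calls. Compared with HFD, the HFD+1B livers had lower Hmgcs1, Idi1, Fdps and Cyp51 and higher Insig1. These are 4 members lower and 1 higher of 7, where 8.02% of all probes tested were lower and 9.92% higher. The median difference of the 7 members was -0.79, against 0.0065 over all probes. Against 1B, 0 members were called in HFD+1B in limma, where 5.3% of all probes were higher and 4.7% lower, although 1 was higher and 2 lower at an unadjusted p of 0.05 or less, and the Tukey test called 0. The comparisons share chow, HFD and HFD+1B mice, so their counts are not independent. The Tukey test, adjusted over all probes, called 1 of the 11 differences above, that of Insig1 between HFD and chow.

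**Figure D1:**
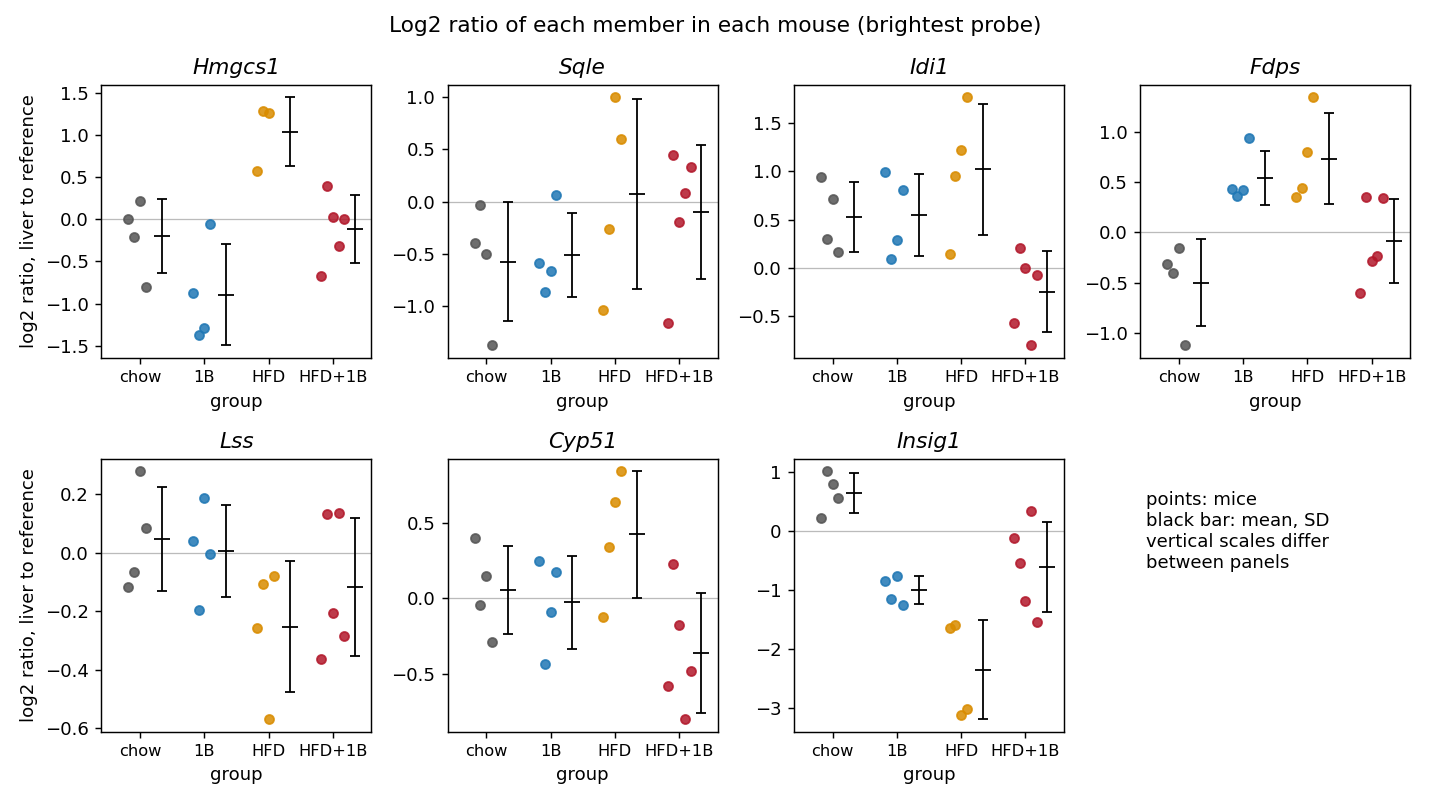
Log2 ratio of liver to reference (vertical axis, with a scale of its own in each panel) of the 7 members in each mouse of the chow, 1B, HFD and HFD+1B groups (horizontal axis). Points are mice, the black bar is the mean with SD, and Hmgcs1 has 3 values in HFD. All 4 HFD mice lie below all others for Insig1, and all HFD mice with a value lie above all others for Hmgcs1.

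Insig1, the sterol-dependent brake on SREBP processing, was the member with the largest differences. Its log2 ratio was 0.21, 1.01, 0.79 and 0.56 in chow mice 1 to 4, and -0.85, -1.16, -0.76 and -1.26 in 1B mice. It was -1.64, -1.60, -3.12 and -3.02 in HFD mice, and -0.13, -0.55, -1.19, 0.33 and -1.55 in HFD+1B mice. Neither the 1B nor the HFD mice overlapped with chow, HFD mice 3 and 4 were the lowest of all 17, and the HFD+1B mice lay above all HFD mice but across the range of 1B.

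The group means of Insig1 thus stood in the order chow (0.64 ± 0.34, SD, n = 4), HFD+1B (-0.62 ± 0.76, n = 5), 1B (-1.01 ± 0.24, n = 4) and HFD (-2.34 ± 0.84, n = 4). Of neighbors in this order, HFD+1B and 1B did not differ beyond their spread (difference 0.39, SE 0.36, adjusted p 0.618 in limma), and 1B and HFD were not tested against each other but did not overlap. Compared with chow, Insig1 was 3.14-fold lower in 1B (log2 difference -1.65, SE 0.38, adjusted p 0.0183), 7.94-fold lower in HFD (-2.99, SE 0.38, adjusted p 0.000176), and 2.39-fold lower in HFD+1B (-1.26, SE 0.36, adjusted p 0.0235). HFD+1B exceeded HFD 3.31-fold (1.73, SE 0.36, adjusted p 0.00321). The ethanol difference was thus negative on chow and positive on HFD, and this interaction was 3.38 (SE 0.52, adjusted p 0.00296).

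The differences of Insig1 between HFD and chow, between HFD+1B and HFD, and in the interaction were called whichever mouse was left out. The other calls were less firm. That of 1B against chow was lost without chow mouse 2 (-1.53, adjusted p 0.0561) or 3 (-1.60, adjusted p 0.0603) or 1B mouse 2 (-1.60, adjusted p 0.0535) or 4 (-1.57, adjusted p 0.0543). That of HFD+1B against chow was lost without any 1 of chow mice 2, 3 and 4 and HFD+1B mice 3 and 5 (-1.29 to -1.03, adjusted p 0.0501 to 0.0754). It was also lost with replicate number as a block (-1.03, adjusted p 0.0556 in limma). Within slides, Insig1 was lower in 1B than in chow on 3 of 3 slides, lower in HFD than in chow on 3 of 3 (-3.68 to -1.86), and higher in HFD+1B than in HFD on 4 of 4 (0.05 to 3.35).

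The second Insig1 probe gave the same directions, with a smaller difference between HFD and chow. Its mean was 0.87 ± 0.17 (SD) for chow and -0.95 ± 0.38 for 1B, against -1.33 ± 0.31 for HFD and -0.43 ± 0.58 for HFD+1B. Its difference from chow was -1.82 in 1B (adjusted p 0.000365 in limma) and -2.20 in HFD (adjusted p 9.09e-05), and HFD+1B exceeded HFD by 0.90 (adjusted p 0.0151). The interaction on this probe was 2.72 (SE 0.35, adjusted p 0.00152). Its mice were less separated than on the brightest probe. The 1B mice (-1.43 to -0.62) overlapped with the HFD mice (-1.72 to -0.98), and HFD+1B mouse 5 (-1.13) lay below HFD mouse 2 (-0.98).

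Ribosomal RNA signal moved with Insig1 in the comparisons with HFD. All 3 ribosomal RNA probes were called lower in HFD than in chow, higher in HFD+1B than in HFD, and positive in the interaction. Of all probes, 6.1%, 9.92% and 2.51% were called so, in this order. In 1B and in HFD+1B against chow, where Insig1 was also lower, 0 of the 3 were called in limma (2 and 1 were lower at an unadjusted p of 0.05 or less). The part of this signal in the Insig1 differences was not tested, nor was its part in the differences of the enzymes between HFD and the other groups.

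Hmgcs1, which makes HMG-CoA early in the pathway, was highest in HFD. Its log2 ratio was 0.00064, -0.22, 0.21 and -0.80 in chow mice 1 to 4, and -0.87, -1.37, -1.28 and -0.06 in 1B mice. It was 0.57, 1.28 and 1.26 in HFD mice 1 to 3 (the spot of mouse 4 was marked as an outlier and left out), and -0.68, 0.39, 0.02, -0.31 and 0.0062 in HFD+1B mice. The 3 HFD mice lay above every chow, 1B and HFD+1B mouse, and the ranges of those 3 groups overlapped.

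Group means of Hmgcs1 stood in the order HFD (1.04 ± 0.41, SD, n = 3), HFD+1B (-0.11 ± 0.40), chow (-0.20 ± 0.44) and 1B (-0.90 ± 0.60). HFD+1B and chow did not differ beyond their spread (0.09, SE 0.27, adjusted p 0.893 in limma), nor did 1B and chow (-0.70, SE 0.29, adjusted p 0.260). Hmgcs1 was 2.36-fold higher in HFD than in chow (1.24, SE 0.31, adjusted p 0.0191) and 2.22-fold lower in HFD+1B than in HFD (-1.15, SE 0.30, adjusted p 0.0133). The first of these calls was lost without chow mouse 4 (1.04, adjusted p 0.0637), HFD mouse 2 (1.11, adjusted p 0.0612) or HFD mouse 3 (1.13, adjusted p 0.0806), and the second without HFD mouse 2 (-1.03, adjusted p 0.0545) or 3 (-1.04, adjusted p 0.0591). On 3 of 3 slides with both groups it was lower in HFD+1B than in HFD (-1.28 to -1.23).

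Idi1, the isomerase of the isoprenoid units, was lowest in HFD+1B. Chow mice 1 to 4 had log2 ratios of 0.94, 0.30, 0.71 and 0.16, with 0.99, 0.09, 0.28 and 0.81 in 1B mice, and 0.14, 0.95, 1.22 and 1.76 in HFD mice. In HFD+1B mice it was -0.57, 0.20, 0.00024, -0.80 and -0.08. HFD mouse 1 stood far below the other 3 HFD mice and overlapped with HFD+1B mouse 2, and the chow and 1B ranges nearly coincided.

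Means of Idi1 were 1.02 ± 0.68 in HFD, 0.54 ± 0.42 in 1B, 0.53 ± 0.36 in chow and -0.25 ± 0.42 in HFD+1B (SD). The first 3 did not differ beyond their spread, with a difference of 0.49 between HFD and chow (SE 0.30, adjusted p 0.319 in limma) and of 0.01 between 1B and chow (SE 0.30, adjusted p 0.994). HFD+1B was 2.40-fold below HFD (-1.27, SE 0.28, adjusted p 0.00504). This call was kept whichever mouse was left out but was lost with Cy5 alone (-1.16, adjusted p 0.109), and the direction held on 4 of 4 slides (-2.56 to -0.71). Against chow the difference of -0.78 missed the threshold (adjusted p 0.0755) but passed it without HFD mouse 1 (adjusted p 0.0360), whose removal leaves both group means as they are, and so did that against 1B (-0.79, adjusted p 0.0896, and 0.0439 without that mouse). The interaction of -1.28 was not called (SE 0.41, adjusted p 0.0857) except without HFD mouse 1 (-1.57, adjusted p 0.0258).

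On its brightest probe, Fdps, which makes farnesyl diphosphate, was the 1 member enzyme that rose with either challenge alone. Its log2 ratio was -0.31, -0.40, -0.15 and -1.12 in chow mice, 0.43, 0.36, 0.42 and 0.94 in 1B mice, and 0.35, 0.44, 0.80 and 1.34 in HFD mice. In HFD+1B mice it was -0.60, 0.36, -0.29, -0.24 and 0.34. All 1B and all HFD mice lay above all chow mice, and the HFD+1B mice fell into a lower set of 3 and a higher pair that reached the lowest HFD value.

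Fdps was 2.05-fold higher than chow in 1B (1.04, SE 0.25, adjusted p 0.0247 in limma) and 2.35-fold higher in HFD (1.23, SE 0.25, adjusted p 0.00519), but not called in HFD+1B (0.41, SE 0.24, adjusted p 0.297). It was 1.76-fold lower in HFD+1B than in HFD (-0.82, SE 0.24, adjusted p 0.0233). The interaction was therefore negative, at -1.85 (SE 0.34, adjusted p 0.00933), and together with Insig1 this made 1 positive and 1 negative interaction among 7 members, where 2.51% and 1.6% of all probes had one. The HFD difference and the interaction were called whichever mouse was left out. The call in 1B was lost without chow mouse 4 (0.83, adjusted p 0.104), 1B mouse 1 (1.07, adjusted p 0.0563) or 1B mouse 4 (0.90, adjusted p 0.0830), and also with median centring (0.92, adjusted p 0.0557), with the authors' table of log2 ratios (1.05, adjusted p 0.0829) and with Cy5 alone (1.40, adjusted p 0.103). The fall in HFD+1B against HFD was lost without HFD mouse 3 (-0.79, adjusted p 0.0574) or 4 (-0.62, adjusted p 0.0974) or HFD+1B mouse 1 (-0.69, adjusted p 0.0579) or 4 (-0.78, adjusted p 0.0552), with median centring (-0.55, adjusted p 0.106) and with Cy5 alone (-0.96, adjusted p 0.116).

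Among the later enzymes, Cyp51, the lanosterol demethylase, had the pattern of Idi1 at a smaller size. The log2 ratio of Cyp51 was 0.40, -0.04, 0.15 and -0.29 in chow mice, 0.25, -0.43, -0.09 and 0.17 in 1B mice, and -0.12, 0.34, 0.64 and 0.84 in HFD mice. In HFD+1B mice it was -0.58, 0.22, -0.18, -0.80 and -0.48. HFD mouse 1 was again the lowest of its group and HFD+1B mouse 2 the highest of its group, and these 2 mice alone made HFD and HFD+1B overlap.

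Cyp51 was 1.73-fold lower in HFD+1B than in HFD (-0.79, SE 0.22, adjusted p 0.0175 in limma), and the other comparisons of this probe were not called. The call was lost without HFD mouse 3 (-0.72, adjusted p 0.0568), HFD mouse 4 (-0.65, adjusted p 0.0725) or HFD+1B mouse 4 (-0.68, adjusted p 0.0518), with median centring (-0.54, adjusted p 0.0819) and with Cy5 alone (-0.55, adjusted p 0.376). The direction held on 4 of 4 slides (-1.64 to -0.46).

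Sqle, squalene epoxidase, overlapped between all groups. Its log2 ratio was -0.39, -0.03, -0.50 and -1.37 in chow mice, -0.59, -0.86, -0.66 and 0.06 in 1B mice, -1.03, -0.26, 1.00 and 0.60 in HFD mice, and -1.16, 0.44, -0.20, 0.09 and 0.33 in HFD+1B mice. HFD mice 3 and 4 were the highest and chow mouse 4 the lowest of the 17. It differed from chow by 0.06 (SE 0.40) for 1B, 0.65 (SE 0.40) for HFD and 0.48 (SE 0.38) for HFD+1B, and the smallest adjusted p of any Sqle comparison was 0.328 in limma. With SEs of this size, a difference in Sqle of about the size seen for Fdps could have been missed.

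Lss, lanosterol synthase, had the narrowest range of the members. Its mice lay between -0.12 and 0.28 in chow, between -0.19 and 0.19 in 1B, between -0.57 and -0.08 in HFD, and between -0.36 and 0.13 in HFD+1B. All groups overlapped, and the difference between HFD and chow, -0.30 (SE 0.14), was not called (adjusted p 0.186 in limma). Unlike those of the other 5 enzymes, its HFD mean was the lowest of the 4 groups on this probe, but both other Lss probes had their highest mean in HFD.

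**Figure D2:**
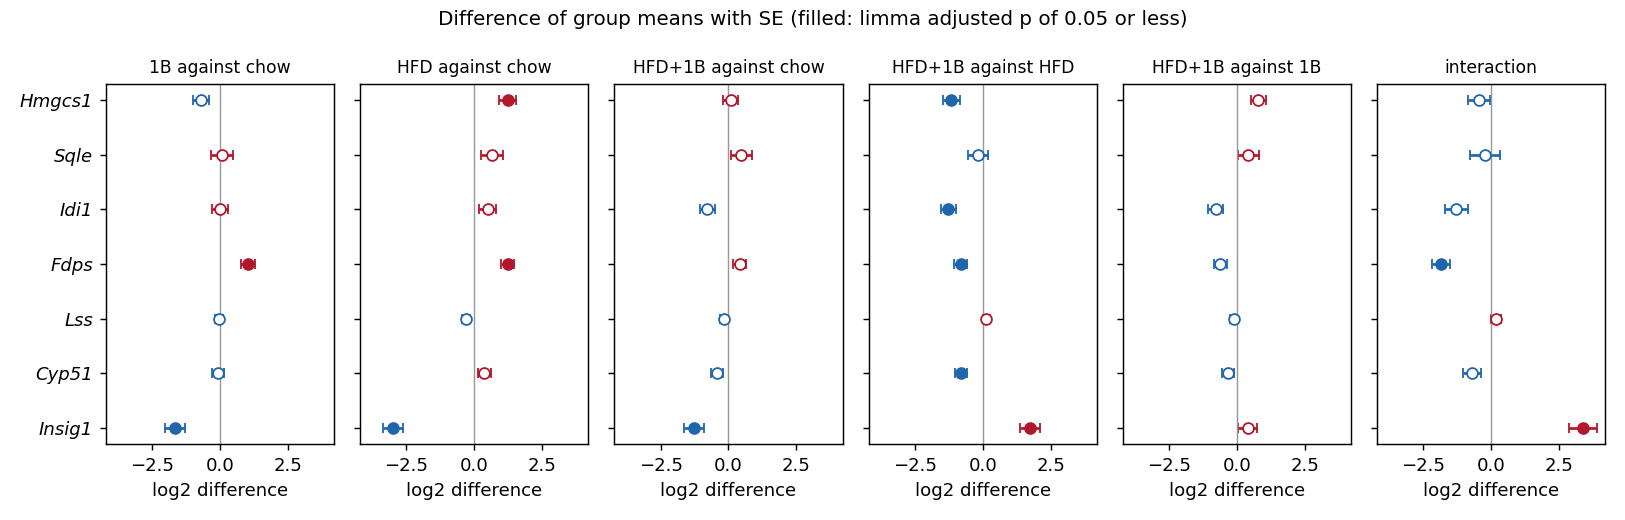
Difference of group means on the log2 scale (horizontal axis) with SE for each member (vertical axis) in 6 comparisons, where the interaction is the ethanol difference on HFD minus that on chow. Red is positive and blue negative, and filled points were called. In HFD+1B against HFD, 4 enzymes are filled to the left and Insig1 to the right.

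The members with more than 1 probe did not always give the same result on each. Counting probes, HFD+1B against HFD had 7 of 16 called lower and 2 higher, the latter both of Insig1, and 13 of 16 were negative, where 8.02% of all probes were called lower and 9.92% higher. In HFD against chow 12 of 16 were positive, with 2 called higher and 2 lower (3.88% and 6.1% of all probes), and in 1B against chow 12 of 16 were negative, with 1 called higher and 3 lower (1.84% and 1.78% of all probes). The second Fdps probe, nearly as bright as the first (mean log2 Cy5 10.16 against 10.36), was flat. Its group means lay between 0.66 (chow) and 0.79 (HFD), with values on 14 arrays. The second Hmgcs1 probe was not called between HFD and chow (0.05, SE 0.39, adjusted p 0.957 in limma). Nor was it called between HFD+1B and HFD (-0.08, SE 0.37, adjusted p 0.917). Its SD in HFD was 1.05, with mouse 3 at -1.49 and the other HFD mice at 0.06 to 0.81. The third Hmgcs1 probe, the dimmest member probe, differed by 0.35 between HFD and chow (adjusted p 0.0630). It fell by 0.51 from HFD to HFD+1B (adjusted p 0.00462).

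For Cyp51, the second probe fell by 0.75 from HFD to HFD+1B (adjusted p 0.00154 in limma) and was also called lower against chow (-0.57, adjusted p 0.00849) and against 1B (-0.53, adjusted p 0.0195), which the brightest probe was not. The third Cyp51 probe was called in none of these comparisons. HFD+1B differed on it by -0.39 from HFD (adjusted p 0.113), -0.15 from chow (adjusted p 0.657) and -0.10 from 1B (adjusted p 0.822). The second Idi1 probe was lower in HFD+1B than in chow (-0.69, adjusted p 0.0285), and its difference from HFD, -0.57, missed the threshold (adjusted p 0.0624). The third Lss probe was lower in 1B than in chow (-0.47, adjusted p 0.0495), and HFD+1B was also below HFD on it (-0.45, adjusted p 0.0163). With the mean of all probes of a gene, Fdps in 1B (0.53, adjusted p 0.127) and Hmgcs1 in HFD (0.51, adjusted p 0.0921) were no longer called against chow, whereas all 5 calls in HFD+1B against HFD remained.

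**Figure D3:**
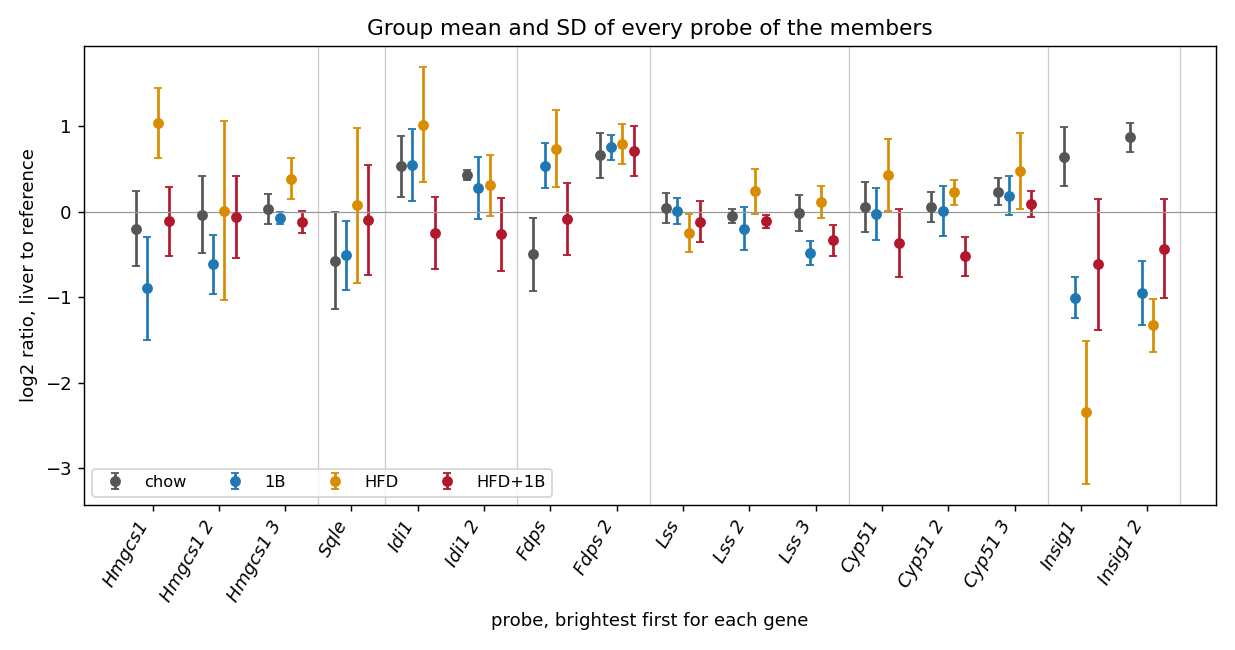
Group mean with SD of the log2 ratio of liver to reference (vertical axis) for all 16 probes of the members (horizontal axis, brightest first for each gene), colored by group. Both Insig1 probes are highest in chow and lowest in HFD, and the second Fdps probe shows no separation of the groups.

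The other enzymes of the pathway were read from a list of 15 genes, all tested. On HFD, the binge went with lower levels of many of them. In HFD+1B against HFD, 6 of 15 were called lower and 0 higher (1 higher at an unadjusted p of 0.05 or less), and the median difference was -0.26. With the 6 member enzymes this made 10 of 21 enzymes called lower and 0 higher, where 8.02% of all probes were lower.

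Msmo1, the sterol methyl oxidase that acts after Cyp51, had the largest difference among them. Its log2 ratio was 0.08 to 1.05 in the 4 chow mice and 0.20 to 1.53 in the 4 HFD mice, but -1.33 to -1.10 in the 4 1B mice and -0.82 to -0.63 in the 5 HFD+1B mice. No binge mouse overlapped with a maltose mouse on either diet. Msmo1 was 3.66-fold lower in 1B than in chow (-1.87, SE 0.21, adjusted p 7.22e-05 in limma) and 3.01-fold lower in HFD+1B than in HFD (-1.59, SE 0.20, adjusted p 9.37e-05), and its interaction was not called (0.28, SE 0.30, adjusted p 0.653).

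Fdft1, squalene synthase, directly follows Fdps. It was lower in 1B than in chow (-0.68, SE 0.17, adjusted p 0.0324 in limma), higher in HFD than in chow (0.60, SE 0.17, adjusted p 0.0351), and 1.99-fold lower in HFD+1B than in HFD (-0.99, SE 0.16, adjusted p 0.000639). Its dimmer probe was called in none of these 3 comparisons (0.20, 0.11 and -0.32). Acat2, which joins acetyl-CoA units at the entry of the pathway, was lower in 1B than in chow (-0.60, SE 0.09, adjusted p 0.00131) and in HFD+1B than in HFD (-0.32, SE 0.10, adjusted p 0.0318), with 3 values in HFD. Fdps, between Acat2 and Fdft1 in the pathway, had a positive difference in 1B on its brightest probe.

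In 1B against chow, Acat2, Fdft1 and Msmo1 were the 3 of 15 further enzymes called lower, where 1.78% of all probes were, and 0 were called higher in limma (1 at an unadjusted p of 0.05 or less). In HFD against chow, 13 of 15 had a positive difference, 1 was called higher (Fdft1) and 1 lower (Tm7sf2, a sterol reductase), where 3.88% and 6.1% of all probes were, with a median of 0.32 against -0.00051 over all probes. In HFD+1B against chow, 2 were called higher and 3 lower, where 7.8% and 6.98% of all probes were. Against 1B, 2 were higher and 1 lower in HFD+1B, where 5.3% and 4.7% of all probes were. For the 15 further enzymes 0 interactions were called, with 1 positive and 1 negative at an unadjusted p of 0.05 or less.

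**Figure D4:**
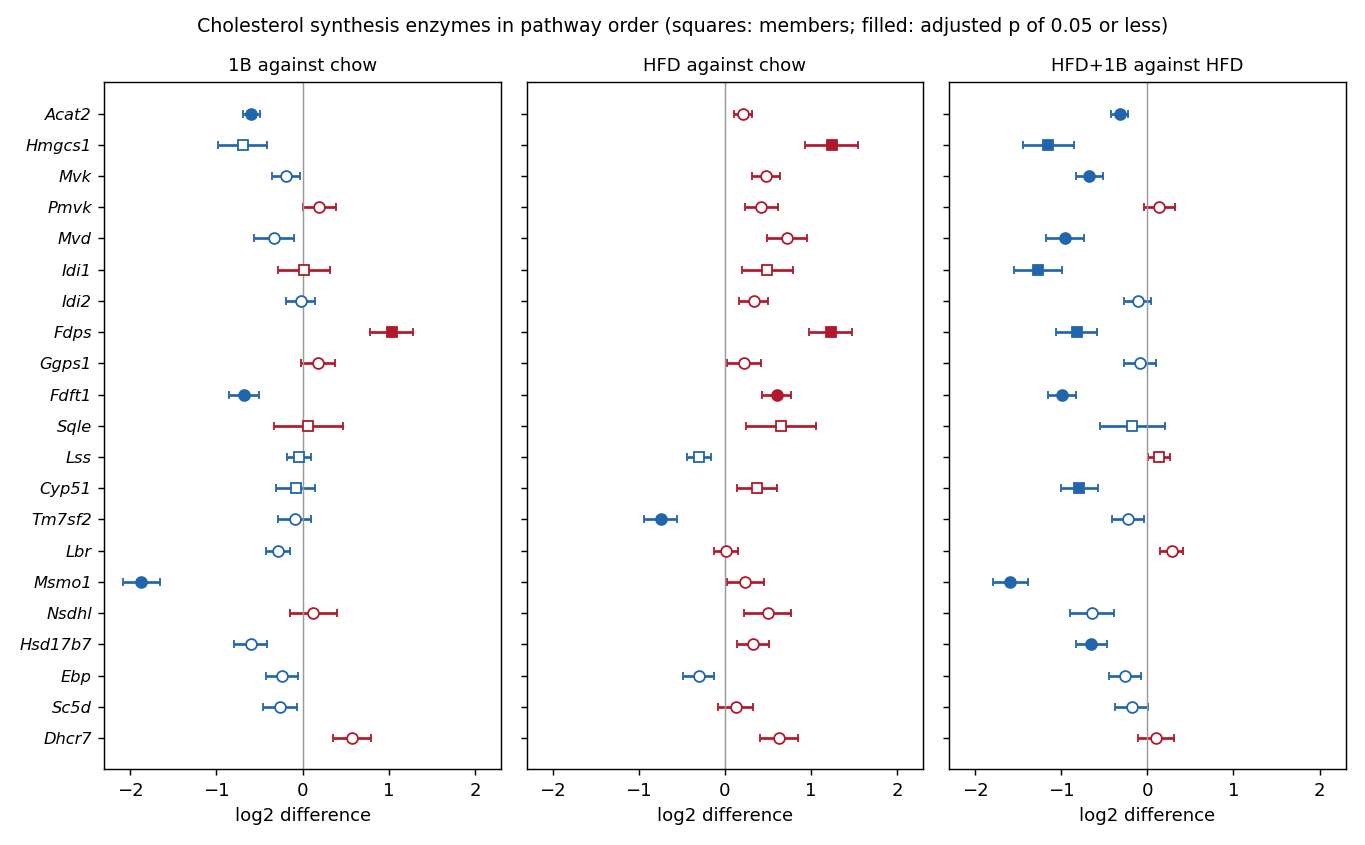
Log2 difference with SE (horizontal axis) of 21 cholesterol synthesis enzymes in pathway order from top to bottom (vertical axis) in 1B against chow, HFD against chow and HFD+1B against HFD. Squares are the 6 member enzymes, circles the 15 further enzymes, and filled symbols were called. In HFD+1B against HFD, 10 of 21 are filled and all of these lie to the left of 0.

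The genes that process and sense SREBP were mostly not called. Of 7 (Srebf1, Srebf2, Scap, Insig2, Mbtps1, Mbtps2 and Rnf139), Insig2 alone passed in any comparison. This made 1 of 7 called higher in HFD against chow, in HFD+1B against chow and in HFD+1B against 1B. Of all probes, 3.88%, 7.8% and 5.3% were higher in these comparisons. Insig2, the second INSIG protein of liver, had values on only 2 or 3 arrays of each group on its brightest probe. They were -1.95 and -1.53 for chow mice, -1.09 and -1.23 for 1B, -0.78, -0.64 and 0.28 for HFD, and 0.57 and 0.38 for HFD+1B. It was higher than in chow in HFD (1.36, SE 0.28, adjusted p 0.0159 in limma) and HFD+1B (2.22, SE 0.31, adjusted p 0.000951), and higher in HFD+1B than in 1B (1.64, SE 0.31, adjusted p 0.00901). Its dimmer probe gave 1.19 (adjusted p 0.0181) and 2.26 (adjusted p 2.48e-05) against chow. In HFD, therefore, Insig1 was lower and Insig2 higher than in chow. The transcripts of Srebf2 and Scap differed from chow by -0.32 to -0.06 in the 3 groups, with no call. Both were lower in HFD+1B than in chow at an unadjusted p of 0.05 or less in limma.

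Of 10 genes of lipoprotein uptake and cholesterol handling, 2 were lower in 1B than in chow, where 1.78% of all probes were. In HFD 0 were called, in limma as well as at an unadjusted p of 0.05 or less, where 3.88% of all probes were higher and 6.1% lower in limma. Scarb1, the HDL receptor, was -0.16 to 0.15 in chow and -0.76 to -0.50 in 1B (difference -0.54, SE 0.10, adjusted p 0.00411 in limma). In the HFD and HFD+1B mice it lay at -0.39 to 0.01, apart from 1B, and its interaction was positive (0.55, SE 0.14, adjusted p 0.0347). Lipa, the lysosomal acid lipase that frees cholesterol from lipoprotein esters, was lower in 1B (-0.88, SE 0.23, adjusted p 0.0393), but its dimmer probe was not called (-0.15, adjusted p 0.603). Soat2, the cholesterol esterifying enzyme, was higher in HFD+1B than in chow (0.74, SE 0.15, adjusted p 0.00195), HFD (0.53, adjusted p 0.0188) and 1B (0.48, adjusted p 0.0434). It was the 1 of 10 genes called in HFD+1B against chow and against HFD, where 7.8% and 9.92% of all probes were higher. Against 1B, 2 of 10 were called higher in HFD+1B, where 5.3% of all probes were.

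Most member enzymes varied together from mouse to mouse. After the group means were taken off, the correlation over mice of Idi1 and Cyp51 was 0.94, and those among Hmgcs1, Sqle, Idi1, Fdps and Cyp51 were 0.65 to 0.94, whereas the brightest Lss probe correlated with each of them at 0.04 to 0.20. The value for Lss depended on the probe, since its second probe correlated with these 5 at 0.61 to 0.79 and the dimmest Lss probe at 0.05 to 0.48. Insig1 correlated with those 5 enzymes at -0.64 to -0.33 and with the 3 Lss probes at 0.44, -0.57 and -0.16. These values are over 17 mice (16 with Hmgcs1), and all genes of a mouse share 1 array. In HFD+1B mouse 1 and HFD mouse 1, both on slide 1, Sqle, Idi1, Fdps and Cyp51 were at or near the lowest of their group, whereas Idi1 and Cyp51 were the highest of their group in chow mouse 1 and 1B mouse 1 of the same slide.

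Cell type markers were read beside these results as mean log2 ratios of fixed lists. For the counts below, 9.92% of all probes were called higher and 8.02% lower in HFD+1B against HFD. In HFD against chow, 3.88% were called higher. Of 5 hepatocyte markers, 4 were higher in HFD+1B than in HFD, and their mean was 0.81 to 1.58 in HFD+1B mice, against -0.35 to 0.53 for HFD, 0.27 to 0.79 for 1B and -0.05 to 0.19 for chow. Alb, the defining marker, was well above background on all arrays, and its group means were 1.19 to 1.53. It was not called in HFD+1B against HFD (0.24, adjusted p 0.227 in limma) or against chow (0.07, adjusted p 0.834). Of 5 macrophage markers, 2 were higher in HFD than in chow, with means of 0.16 to 0.43 in HFD and -0.40 to 0.08 in chow. Of 6 neutrophil markers, 2 were higher in HFD+1B than in HFD, and S100a8 was well above background on 12 of 17 arrays. Of 4 pancreatic acinar markers, 1 was called higher in that comparison. Of 4 adipocyte markers 0 were called between HFD+1B and HFD, also at an unadjusted p of 0.05 or less. The part of these cells in the members' differences was not tested.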

How the data were processed

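Liver RNA of 17 mice was hybridized to 2-color Agilent arrays, 1 array a mouse. Per the labels, the authors' arrays were read with Agilent Feature Extraction, and the file headers give version 11.5.1.1. The authors deposited median Cy5 and Cy3 spot signals and local backgrounds as raw intensity, with flags for outliers and for signal well above background, and a table of log2 ratios of liver to reference, which equals the log2 ratio of the scanner's processed signals (largest difference 2.74e-06 over probes with 1 spot). Of its value columns 0 had no sample. The genome build of the probe annotation is older than the reference used here, and no array coordinates were used.

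From 43379 non-control spots, intensity was corrected with normexp (offset 50), outlier spots were left out, each array was normalized by loess, and replicate spots were averaged as log2 ratios. Probes well above background on at least 4 arrays with a value in every group were tested in 1 fit of 17 arrays (R 4.3.3, limma 3.58.1, data.table in version 1.17.8), with 13 residual degrees of freedom. All 17 value columns were distinct. The number of arrays limits the precision. The procedure was tested on simulated data.

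The members and lists were chosen with earlier results of these data known. Some genes of these lists are not reported here and are left out of the counts. Beyond the members, the 3 genes of each list with the smallest adjusted p over the comparisons were named where called, and for likeness the 5 genes of highest correlation. Other genes named were chosen after their values were seen. Promoters were taken from RefSeq (GRCm38.p6). Sqle and Fdps were not looked up further. After group means were taken off, mice of different groups with the same replicate number correlated above 0.1 in 16 of 24 pairs (median 0.18). With different numbers it was 19 of 84 (median -0.05). On the same slide it was 16 of 21 (median 0.20), and on different slides 19 of 87 (median -0.04). Mice that shared a slide or a number were thus more alike in the median. The numbers were not taken to pair mice, and the main fit held neither slide nor number as a block. Alternatives were slide and replicate number as blocks, no background correction, median centring, the deposited log2 ratios, Cy5 alone and other filters. Others were the mean of all probes, a 2-fold threshold with unadjusted p, the Tukey test named in the methods (here adjusted over all probes tested), and leaving out each mouse.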

Additional observations from a re-analysis of the deposited data

Results flagged for a closer look

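In Fdps, 1B mouse 4 (log2 ratio 0.94) stood apart from the 3 other 1B mice (0.36 to 0.43), and its gap to the nearest was 0.876 of the range of the group. It was 1 of 27 groups of 4 or 5 values examined, and chance alone marks a share of about 0.05 of such groups. Without this mouse Fdps was 0.90 higher in 1B than in chow (adjusted p 0.0830 in limma).

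The ethanol difference of Fdps was positive on chow and negative on HFD, and the interaction was -1.85 (adjusted p 0.00933 in limma). The second Fdps probe had an interaction of -0.17 (adjusted p 0.748). The ethanol difference of Insig1 was negative on chow and positive on HFD, with an interaction of 3.38 (adjusted p 0.00296), and the second Insig1 probe gave 2.72. All 3 ribosomal RNA probes had a positive interaction too, and their part in that of Insig1 was not tested.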

How the results depend on the processing

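Under the alternatives, single-member results kept direction and side of the threshold in 1083 cases, lost a call in 47, gained one in 9 and turned direction in 30. Most of these differences were not called in the main fit, and only a called difference can lose its call. The reversals were all of differences not called. As calls among the 7 members (2, 3, 1, 5 and 0 in 1B, HFD and HFD+1B against chow, HFD+1B against HFD and against 1B, and 2 interactions), the replicate block left 0 in HFD+1B against chow, where Insig1 was at -1.03 (adjusted p 0.0556 in limma). Median centring left 1 in 1B and 3 in HFD+1B against HFD and gave 1 against 1B (Hmgcs1, 0.90). The authors' table left 1 in 1B, and Cy5 alone left 1 in 1B and 2 in HFD+1B against HFD. The mean of all probes left 1 in 1B and 2 in HFD and gave 2 in HFD+1B against chow and 1 against 1B, both with Idi1 (-0.73 and -0.67). A 2-fold threshold with unadjusted in place of adjusted p left 3 in HFD+1B against HFD and gave 3 interactions. The added interaction was that of Idi1 (-1.28, unadjusted p 0.0059, adjusted p 0.0857 in limma). The Tukey test, adjusted over all probes, left 0 in 1B, 1 in HFD, 0 in HFD+1B against chow and 0 against HFD. Leaving out 1 mouse gave 0 to 2, 2 to 3, 0 to 2, 2 to 5, 0 to 1 and 2 to 3 calls, in the order above. Without 1B mouse 4 or HFD+1B mouse 1, Hmgcs1 was called in HFD+1B against 1B (1.06 and 0.93). The slide block, no background correction and both other filters kept these counts.

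Directions turned for Sqle in 1B (-0.051 with the slide block), and for Idi1 in 1B (-0.019 with the slide block, -0.017 with median centring, -0.0026 with the authors' table, -0.22 with Cy5 alone, -0.068 with the mean of probes). With median centring Sqle turned in HFD+1B against HFD (0.10) and in its interaction (0.095). With the mean of probes Lss turned in HFD (0.040), in HFD+1B against HFD (-0.22) and 1B (0.037) and in its interaction (-0.0028), and Hmgcs1 in HFD+1B against chow (-0.031). Leaving out 1 mouse moved the 1B difference of Cyp51 from -0.20 to 0.056, of Idi1 from -0.13 to 0.17, of Lss from -0.10 to 0.039 and of Sqle from -0.20 to 0.24. It moved Hmgcs1 in HFD+1B against chow from -0.11 to 0.23, Sqle against HFD from -0.54 to 0.13 and its interaction from -0.61 to 0.071. The causes were not tested. Of the member probes, 15 of 16 were well above background on all arrays.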

Other observations

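Over all 17 mice, the genes with the pattern most like the mean of the 6 members with a value on every array (each scaled) were Mettl14 (r 0.81), Lsm2 (0.81), Ctr9 (0.80), Nsdhl (0.78) and Hint1 (0.78), out of 17977 genes compared. Insig1 runs against most of the enzymes in that mean, which lowers its range. Nsdhl, a sterol dehydrogenase of the pathway, is the 1 cholesterol gene among them, and its fall in HFD+1B against HFD was not called (-0.64, SE 0.26, adjusted p 0.0921 in limma).

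The genes most like Insig1 alone were Atp13a3 (r 0.93), Lrrn2 (0.92), Dnajc16 (0.92), Rbm47 (0.92) and Hist4h4 (0.91), each chosen from 17982 for this likeness. Atp13a3, the closest, was lower in HFD than in chow (-0.77, SE 0.13, adjusted p 0.00137 in limma) and higher in HFD+1B than in HFD (0.54, SE 0.12, adjusted p 0.00507). None of these 5 is in the lists of cholesterol genes.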
